A study of Mus musculus with 6 samples.

Results

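The Cyp genes encode cytochrome P450 monooxygenases, and the regions described here are the peaks of trimethylated lysine 9 of histone H3 (H3K9me3) whose nearest transcription start site (TSS), as the authors annotated it, belongs to a gene whose symbol is Cyp followed by a number, letters and a number. By that rule 150 of 34673 peaks were Cyp peaks, and they were assigned to 59 genes. All come from a list of WT-specific peaks, which the authors found in WT Bergmann glia (BG), a radial type of astrocyte in the cerebellum, and not in Setdb1 mutant BG. H3K9me3 ChIP-seq was done with 2 libraries of Setdb1 mutant BG and 2 of WT BG, beside 2 control libraries whose labels name both input and IgG, all from cerebellum of C57BL/6 mice at postnatal day 10. Mutant BG lacked Setdb1, an H3K9 methyltransferase, through mGFAP-Cre and floxed Setdb1 alleles. This Cre also acts in the other neural cells of the cerebellum apart from Purkinje cells. In the study, BG were sorted by GFP from animals with a Nes-GFP transgene, in mutant and WT alike. The list gives a position, a score and an annotation for each peak but no value for any library, so the level of H3K9me3 in mutant and WT BG, its spread between replicates and the depth of the libraries are unknown. The identity of the sorted cells could not be checked against marker genes in such a list.

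P450 enzymes insert an oxygen atom into steroids, fatty acids, retinoids, bile acids, drugs and other small molecules, with electrons passed on by P450 reductase or, in mitochondria, by adrenodoxin. Families that handle foreign compounds, such as Cyp2 and Cyp3, have expanded in mice into tandem arrays of similar genes that are used mostly in liver, gut, kidney, lung and nasal tissue, while the enzymes of steroid, sterol, vitamin and retinoid metabolism tend to be single genes. H3K9me3 marks silent chromatin, and Setdb1 is known for placing it on endogenous retroviruses and other repeats.

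The sequences that follow stand for the peaks with the most direct bearing on a Cyp gene, those over a TSS. They also stand for the 2 highest-scored peaks whose label names no repeat. For the Cyp21a1 peak among these that label is promoter-TSS, and whether its centre lies in a repeat was not tested. Positions are those of mm10, and the bases come from the RefSeq sequence of GRCm38.p6, the same build. Capitals mark TTGGCA or its reverse complement TGCCAA, the subunit site of the NFI factors, one of which the study places in a complex with Setdb1. The promoter runs are the bases directly upstream of the TSS that lie inside the peak, written along the strand of the gene. They cover chr17:34804427-34804626 for Cyp21a1 and chr15:82620908-82621107 for Cyp2d34, both on the minus strand, and chr7:26061342-26061494 for Cyp2b13 and chr7:26808727-26808926 for Cyp2g1, both on the plus strand. The other runs are the middle of the Cyp21a1 promoter peak, chr17:34804871-34805070 on the minus strand, and of an intergenic peak upstream of Cyp4f37, chr17:32586642-32586841 on the plus strand.
Cyp21a1 promoter: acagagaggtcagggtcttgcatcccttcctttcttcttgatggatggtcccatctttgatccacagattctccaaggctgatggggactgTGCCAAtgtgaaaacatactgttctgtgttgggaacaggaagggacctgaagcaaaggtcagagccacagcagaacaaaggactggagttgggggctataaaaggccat
Cyp21a1 peak, centre: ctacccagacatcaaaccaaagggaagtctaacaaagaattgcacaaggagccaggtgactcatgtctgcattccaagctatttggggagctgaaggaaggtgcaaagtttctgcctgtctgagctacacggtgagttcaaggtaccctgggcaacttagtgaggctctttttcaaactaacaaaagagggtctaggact
Cyp2d34 promoter: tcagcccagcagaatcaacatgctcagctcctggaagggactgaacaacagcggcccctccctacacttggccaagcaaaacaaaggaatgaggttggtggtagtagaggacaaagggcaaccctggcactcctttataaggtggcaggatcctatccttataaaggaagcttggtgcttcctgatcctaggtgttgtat
Cyp2b13 promoter: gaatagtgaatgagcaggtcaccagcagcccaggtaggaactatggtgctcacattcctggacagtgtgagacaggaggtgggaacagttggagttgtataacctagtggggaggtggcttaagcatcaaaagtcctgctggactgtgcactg
Cyp2g1 promoter: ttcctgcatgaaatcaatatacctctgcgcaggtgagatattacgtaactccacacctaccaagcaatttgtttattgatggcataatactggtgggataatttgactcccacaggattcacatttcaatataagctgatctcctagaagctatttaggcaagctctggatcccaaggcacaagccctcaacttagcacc
Cyp4f37 upstream peak, centre: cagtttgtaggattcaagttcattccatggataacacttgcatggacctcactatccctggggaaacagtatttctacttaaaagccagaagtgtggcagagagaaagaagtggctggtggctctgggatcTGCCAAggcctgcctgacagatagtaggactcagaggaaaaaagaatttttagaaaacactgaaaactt

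These promoters held few CpG sites. The run held 0 CpG in Cyp21a1, 1 in Cyp2d34, 0 in the 153 bases of Cyp2b13 and 2 in Cyp2g1. Over 32851 promoters of the RefSeq table, 10.6% had no CpG in the 200 bases upstream of the start. Of the promoter runs, only that of Cyp21a1 held the 6-base site, and 9.56% of all promoters had it in the same 200 bases. The site also stood in the Cyp4f37 run, the centre of an intergenic peak, for which that share is no background.

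A pair of windows shows how alike the sequence under Cyp peaks of different genes can be, with capitals at the bases that differ. Cyp2a5 and Cyp2a4, paralogs whose enzymes oxidise coumarin and testosterone, each had a peak outside annotated repeats, 10.3 kb downstream of the TSS in Cyp2a5 and 10.5 kb in Cyp2a4. These peaks shared 96.6% of bases over 320 bp. The windows of 120 bases are chr7:26845685-26845804 and chr7:26317511-26317630 for Cyp2a5 and Cyp2a4, both on the plus strand.
Cyp2a5 peak: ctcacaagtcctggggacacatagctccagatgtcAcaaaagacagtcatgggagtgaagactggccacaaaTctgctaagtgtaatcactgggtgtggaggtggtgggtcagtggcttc
Cyp2a4 peak: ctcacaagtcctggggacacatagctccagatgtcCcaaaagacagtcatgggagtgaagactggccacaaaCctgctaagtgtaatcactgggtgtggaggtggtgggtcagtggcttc

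Counted from 1 at the start of the window, Cyp2a4 differed from Cyp2a5 by A36C and T73C. In all, 34 pairs of Cyp peaks, made up of 21 of the 150 peaks, matched with at least 80% identity over at least 250 bp, and 10 of the pairs lay on the same chromosome. Of these 21 peaks, 12 lay on L1 elements, the LINE family that still moves in the mouse genome. MTA_Mm elements joined a peak of Cyp3a44 with 1 of Cyp3a11 (88.0% over 275 bp), and RLTR9D elements joined peaks upstream of Cyp2c68 and Cyp2c69 (90.3% over 370 bp).

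Of 93 protein-coding genes that follow the naming rule, 59 (63.4%, 95% Wilson interval 53.3 to 72.5) were the nearest gene of at least 1 peak, beside 48.9% of 21887 protein-coding genes. The Wilson intervals cover counting error only, and neighbouring genes and peaks are not independent. Cyp genes are somewhat longer, with a median of 21.2 kb beside 17.2 kb over all genes. Among genes of 10 to 50 kb, 38 of 59 Cyp genes (64.4%, 51.7 to 75.4) and 50.0% of all genes had a peak. A peak centred inside the gene itself was found for 30 Cyp genes (32.3%, 23.6 to 42.3), beside 30.7% of all genes, and at least 1 peak outside repeats for 31 (33.3%, 24.6 to 43.4), beside 32.6%, so that by both measures Cyp genes stood near the background. A peak within 10 kb of the TSS was found for 32 (34.4%, 25.5 to 44.5), beside 21.1% of all genes. The rule also matches 2 pseudogenes in the annotation, Cyp2j7 and Cyp2d13, to which no peak was assigned.

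The peaks were spread unevenly over the genes. No peak was assigned to 34 of the 93 genes, 1 peak to 20, 2 to 14, 3 to 10, 4 to 10, 5 to 2, 7 to 2 and 8 to 1. Cyp2a4, a testosterone hydroxylase of liver, had the most with 8 peaks, scored 5.13 to 15.1. All 8 were intergenic and outside the gene, 3.79 to 46.8 kb from its TSS. Cyp3a11, the main Cyp3a enzyme of mouse liver and a target of the xenobiotic receptor PXR, had 7, scored 5.78 to 15.1. Cyp2b10, the classic target of the receptor CAR, also had 7, scored 5.78 to 12.5. Cyp21a1, which makes the precursors of corticosterone and aldosterone in the adrenal cortex, had 5, as did Cyp2c67 with a highest score of 8.34. Of the genes with 4 peaks, Cyp2a22 reached 34.3, Cyp2c29 14.8, Cyp2d12 13.5, Cyp2f2 13.2, Cyp2c70 9.95, and Cyp4a29 and Cyp2b9 9.31 each. Cyp2f2 activates naphthalene in club cells of the lung, and Cyp2c70 makes the muricholic bile acids of rodents.

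**Figure D1:**
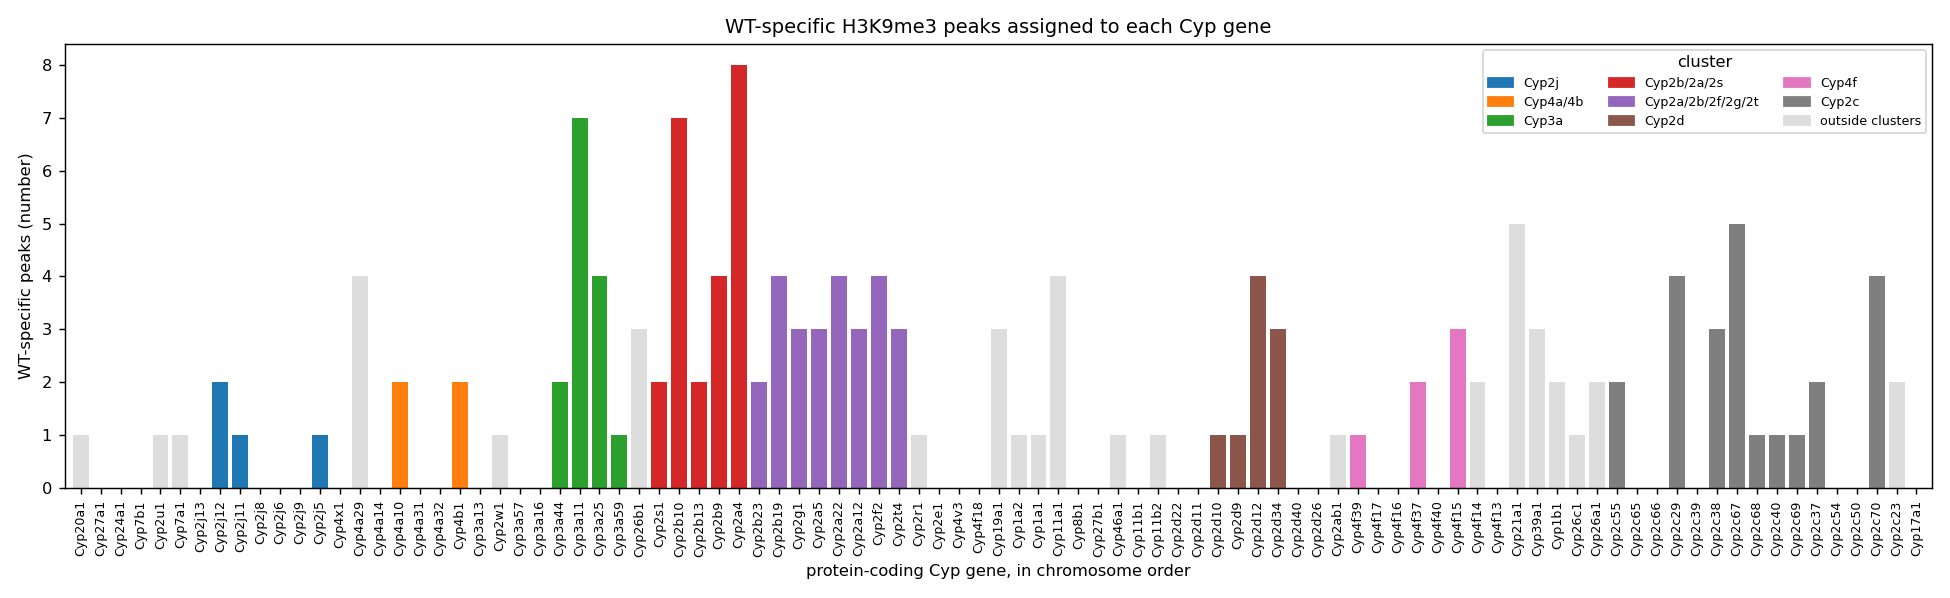
Number of WT-specific H3K9me3 peaks assigned to each of the 93 protein-coding Cyp genes, in chromosome order along the x axis, with bars coloured by gene cluster. Cyp2a4 is highest at 8 peaks, every gene of both chromosome 7 clusters has a bar, and 34 genes have none.

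By family, 34 of 48 Cyp2 genes had 91 peaks, 4 of 7 Cyp3 genes had 14 and 7 of 17 Cyp4 genes had 16. All 5 Cyp2b genes (19 peaks) and all 4 Cyp2a genes (18 peaks) had a peak, as did 10 of 15 Cyp2c genes (25 peaks). In Cyp2j, whose enzymes make epoxides of arachidonic acid, 3 of 7 genes had 4 peaks, in Cyp2d 4 of 8 genes had 9, and in Cyp4f, which inactivates leukotrienes, 4 of 9 genes had 8. The Cyp2j, Cyp2d and Cyp4f counts lie near the 48.9% of all protein-coding genes. Those of Cyp2 as a whole and of Cyp2a, Cyp2b and Cyp2c lie above it, in neighbouring genes that are not independent. Cyp2e1, the ethanol-oxidising enzyme, had none, nor did Cyp4v3, Cyp4x1 and Cyp4f18.

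Counts by function are read against the same 48.9% and are small, with wide counting intervals. Of the genes of retinoic acid breakdown, 3 of 3 had a peak (interval 43.9 to 100%). Cyp26b1 had 3 peaks, 168 to 178 kb upstream of its TSS and all inside intron 19 of Exoc6b, Cyp26a1 had 2 (31.0 and 136 kb downstream) and Cyp26c1 had 1, 58.7 kb upstream in intron 18 of Exoc6. Among enzymes of steroid hormone synthesis, 4 of 6 genes had 13 peaks (30.0 to 90.3%). Cyp11a1, which cleaves the side chain of cholesterol in the opening step, had 4 peaks, the nearest 1.90 kb from the TSS. Cyp19a1 (aromatase) had 3, Cyp11b2 (aldosterone synthase) had 1, and Cyp11b1 and Cyp17a1 had 0. Of genes for sterol and bile acid metabolism 3 of 6 had 5 peaks (18.8 to 81.2%). Cyp39a1, an oxysterol hydroxylase, had 3 in its introns (5.88 to 57.5 kb downstream), Cyp7a1, the rate-limiting enzyme of bile acid synthesis, had 1 at 8.43 kb upstream, and Cyp46a1, which turns over cholesterol in neurons, had 1 with a score of 5.46 inside Hhipl1. A further peak inside Cyp46a1 itself was assigned to Eml1. Cyp7b1, Cyp8b1 and Cyp27a1 had 0. In the vitamin D pathway only Cyp2r1 of 3 genes was the nearest gene of a peak, 30.5 kb upstream. A peak inside Cyp24a1 was assigned to Pfdn4. The aryl hydrocarbon-induced genes Cyp1a1 and Cyp1a2 had 1 each and Cyp1b1 had 2. Of 4 genes listed for brain and glia, Cyp20a1 and Cyp2u1 had 1 each, and Cyp2j9 and Cyp4x1 had 0.

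Other genes of P450 function and drug metabolism are given by counts. Of 8 genes for electron donors and haem-binding partners of P450, 7 had 14 peaks, with 6 at Pgrmc2 and 1 at Pgrmc1, membrane proteins that bind haem and are no electron donors, and 2 at Por, the P450 reductase. Receptors that control Cyp genes and their partners had a peak in 8 of 12, among them Rxra with 5, while Nr1i3 (CAR) and Arnt had 0. Of conjugating and other enzymes, the share was 15 of 21 sulfotransferases (42 peaks), 9 of 19 carboxylesterases, 7 of 21 UDP glucuronosyltransferases, 5 of 22 glutathione S-transferases and 2 of 7 flavin monooxygenases. The background for all of these is the 48.9% of protein-coding genes with a peak.

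Most Cyp peaks belonged to tandem arrays. A cluster was taken as at least 3 annotated Cyp genes with gaps of at most 200 kb, which gave 8 clusters of 3.985 Mb with 59 genes, 2 of them the pseudogenes. Their genes held 109 of the 150 peaks (72.7%). They also make up most Cyp genes, 57 protein-coding genes beside 36 others. A peak was assigned to 38 of the 57 (66.7%, 53.7 to 77.5) and to 21 of the 36 (58.3%, 42.2 to 72.9), with overlapping intervals. The mean was 1.91 peaks per cluster gene and 1.14 per other Cyp gene. Counting every peak between the first and the last gene of a cluster, whatever gene it was assigned to, gave 97 peaks or 24.3 per Mb. The chromosomes concerned averaged 15.8 per Mb over the same length, which is 62.8 peaks and a ratio of 1.54, and the genome had 13.1 per Mb. With peaks on repeats left out, the clusters had 6.78 per Mb, 0.871 times the density of their chromosomes. Of the 97 peaks, 91 were Cyp peaks, 2 were assigned to the vomeronasal receptor gene Vmn1r184, 2 to Mir7684 and 1 each to the pseudogenes Cyp2d37-ps and Cyp2c53-ps.

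The clusters differed. The Cyp2a/2b/2f/2g/2t array on chromosome 7 (chr7:26665227-27158564) had 50.7 peaks per Mb, beside 18.5 on its chromosome, with a peak at 8 of 8 genes. The neighbouring Cyp2b/2a/2s array (chr7:25802469-26315088) had 39.0 per Mb with a peak at 5 of 5 genes. The Cyp3a array (chr5:145773983-146114978) had 38.1 beside 16.6 per Mb, with a peak at 4 of 4 genes, and the Cyp2d array (chr15:82370527-82794452) had 28.3 beside 13.4 per Mb, with a peak at 4 of 9 genes. These 4 arrays had 2.11 to 2.74 times the density of their chromosome. The Cyp3a array leaves out Cyp3a57 and Cyp3a16 (chr5:145345149-145469740), which lie before its first gene, beyond the gap allowed within a cluster. Each had 0 peaks. The 4 of 4 genes and the 38.1 per Mb therefore describe only part of the Cyp3a genes of chromosome 5, and no density is given for the longer stretch. The Cyp2c array (chr19:39006940-40187286), at 1180 kb the longest, had 15.2 beside 14.2 per Mb. The Cyp4a/4b array (chr4:115486200-115647721; 2 peaks), the Cyp4f array (chr17:32452697-32703352; 3 peaks) and the Cyp2j array (chr4:96042660-96664171; 4 peaks) lay below their chromosomes, with ratios of 0.828, 0.686 and 0.430. Counts this small carry wide counting error.

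**Figure D2:**
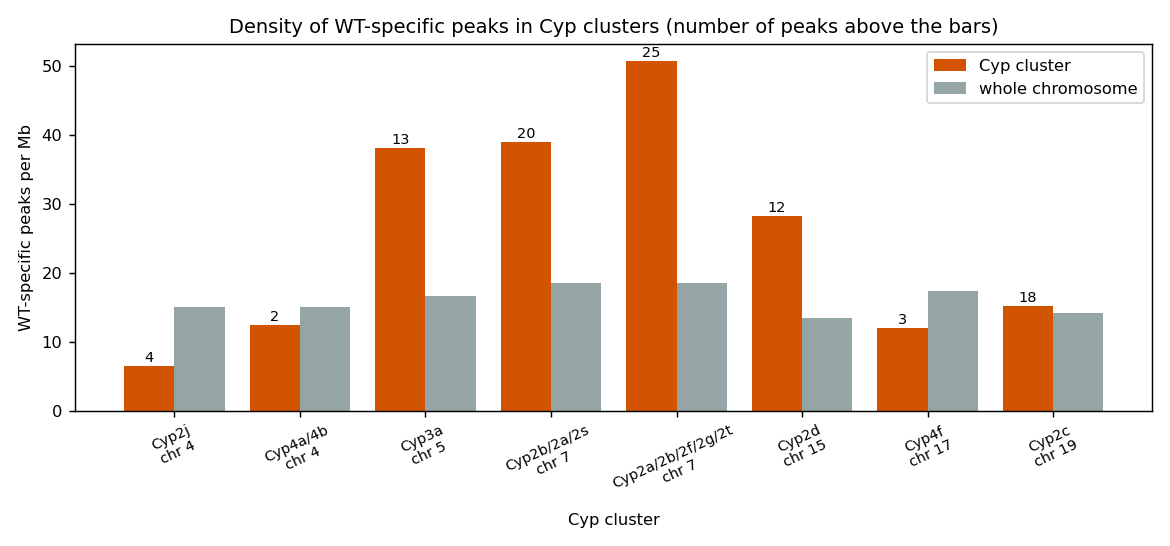
WT-specific peaks per Mb (y axis) in each of the 8 Cyp clusters (left bar) and on the whole chromosome that holds it (right bar), with the number of peaks in the cluster above its bar. The Cyp3a, Cyp2d and both chromosome 7 arrays stand at 2.11 to 2.74 times their chromosome, and the Cyp2j array at 0.430 times.

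The clusters were richer in repeats than the genome. Repeat-masked bases made up 51.1% of the clusters and 36.4% of the genome, and 60.6% of the Cyp2c array beside 31.0% of chromosome 19. In all, the clusters held 70 repeat-centred peaks (34.4 per masked Mb), where their chromosomes' rates per masked Mb give 48.3 peaks (ratio 1.45). They held 27 peaks without a repeat (13.9 per unmasked Mb), where the chromosomes' rates per unmasked Mb give 22.9 peaks (ratio 1.18). The masked share was 35.6% in the Cyp4f array, 42.2% in Cyp4a/4b, 42.6% in Cyp2d, 48.4% in Cyp2b/2a/2s, 49.7% in Cyp2j, 50.7% in Cyp3a and 51.4% in Cyp2a/2b/2f/2g/2t. Densities were higher at higher masked shares in part of these arrays only. The Cyp2j and Cyp2c arrays were out of that order, with 6.44 and 15.2 peaks per Mb. The Cyp3a array, at 38.1, stood just below the less masked Cyp2b/2a/2s array at 39.0. The part of repeat content in the densities was not tested beyond these values. By array, the non-repeat peaks reached 37.5 and 30.2 per unmasked Mb in the chromosome 7 arrays, beside 13.7 on chromosome 7, and 24.7 in the Cyp2d array beside 9.93. In the Cyp3a array non-repeat peaks were 5.95 per unmasked Mb beside 12.6, and its repeat-centred peaks 69.4 per masked Mb beside 24.6. The Cyp2c array had 2.15 non-repeat peaks per unmasked Mb, beside 11 on its chromosome, and 23.8 repeat-centred peaks per masked Mb, beside 21.5.

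The kind of repeat also differed between arrays. In the Cyp2c array 20 of 23 Cyp peaks lay on a repeat and 11 on an L1, and in the Cyp4a/4b array all 4 lay on an L1. In the Cyp3a array 13 of 14 were on a repeat, of which 8 were LTR elements and 5 of those MaLR. The Cyp2a/2b/2f/2g/2t array had 17 of 26 on a repeat, with 11 on LTR and 2 on L1, and the Cyp2b/2a/2s array 14 of 23, with 7 on LTR and 5 on L1. The Cyp2d array had 5 of 9 and the Cyp4f array 3 of 6, all 3 on LTR. The genes outside clusters had 41 peaks, of which 20 (48.8%, 34.3 to 63.5) lay on a repeat, beside 80 of 109 (73.4%, 64.4 to 80.8) at cluster genes.

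**Figure D3:**
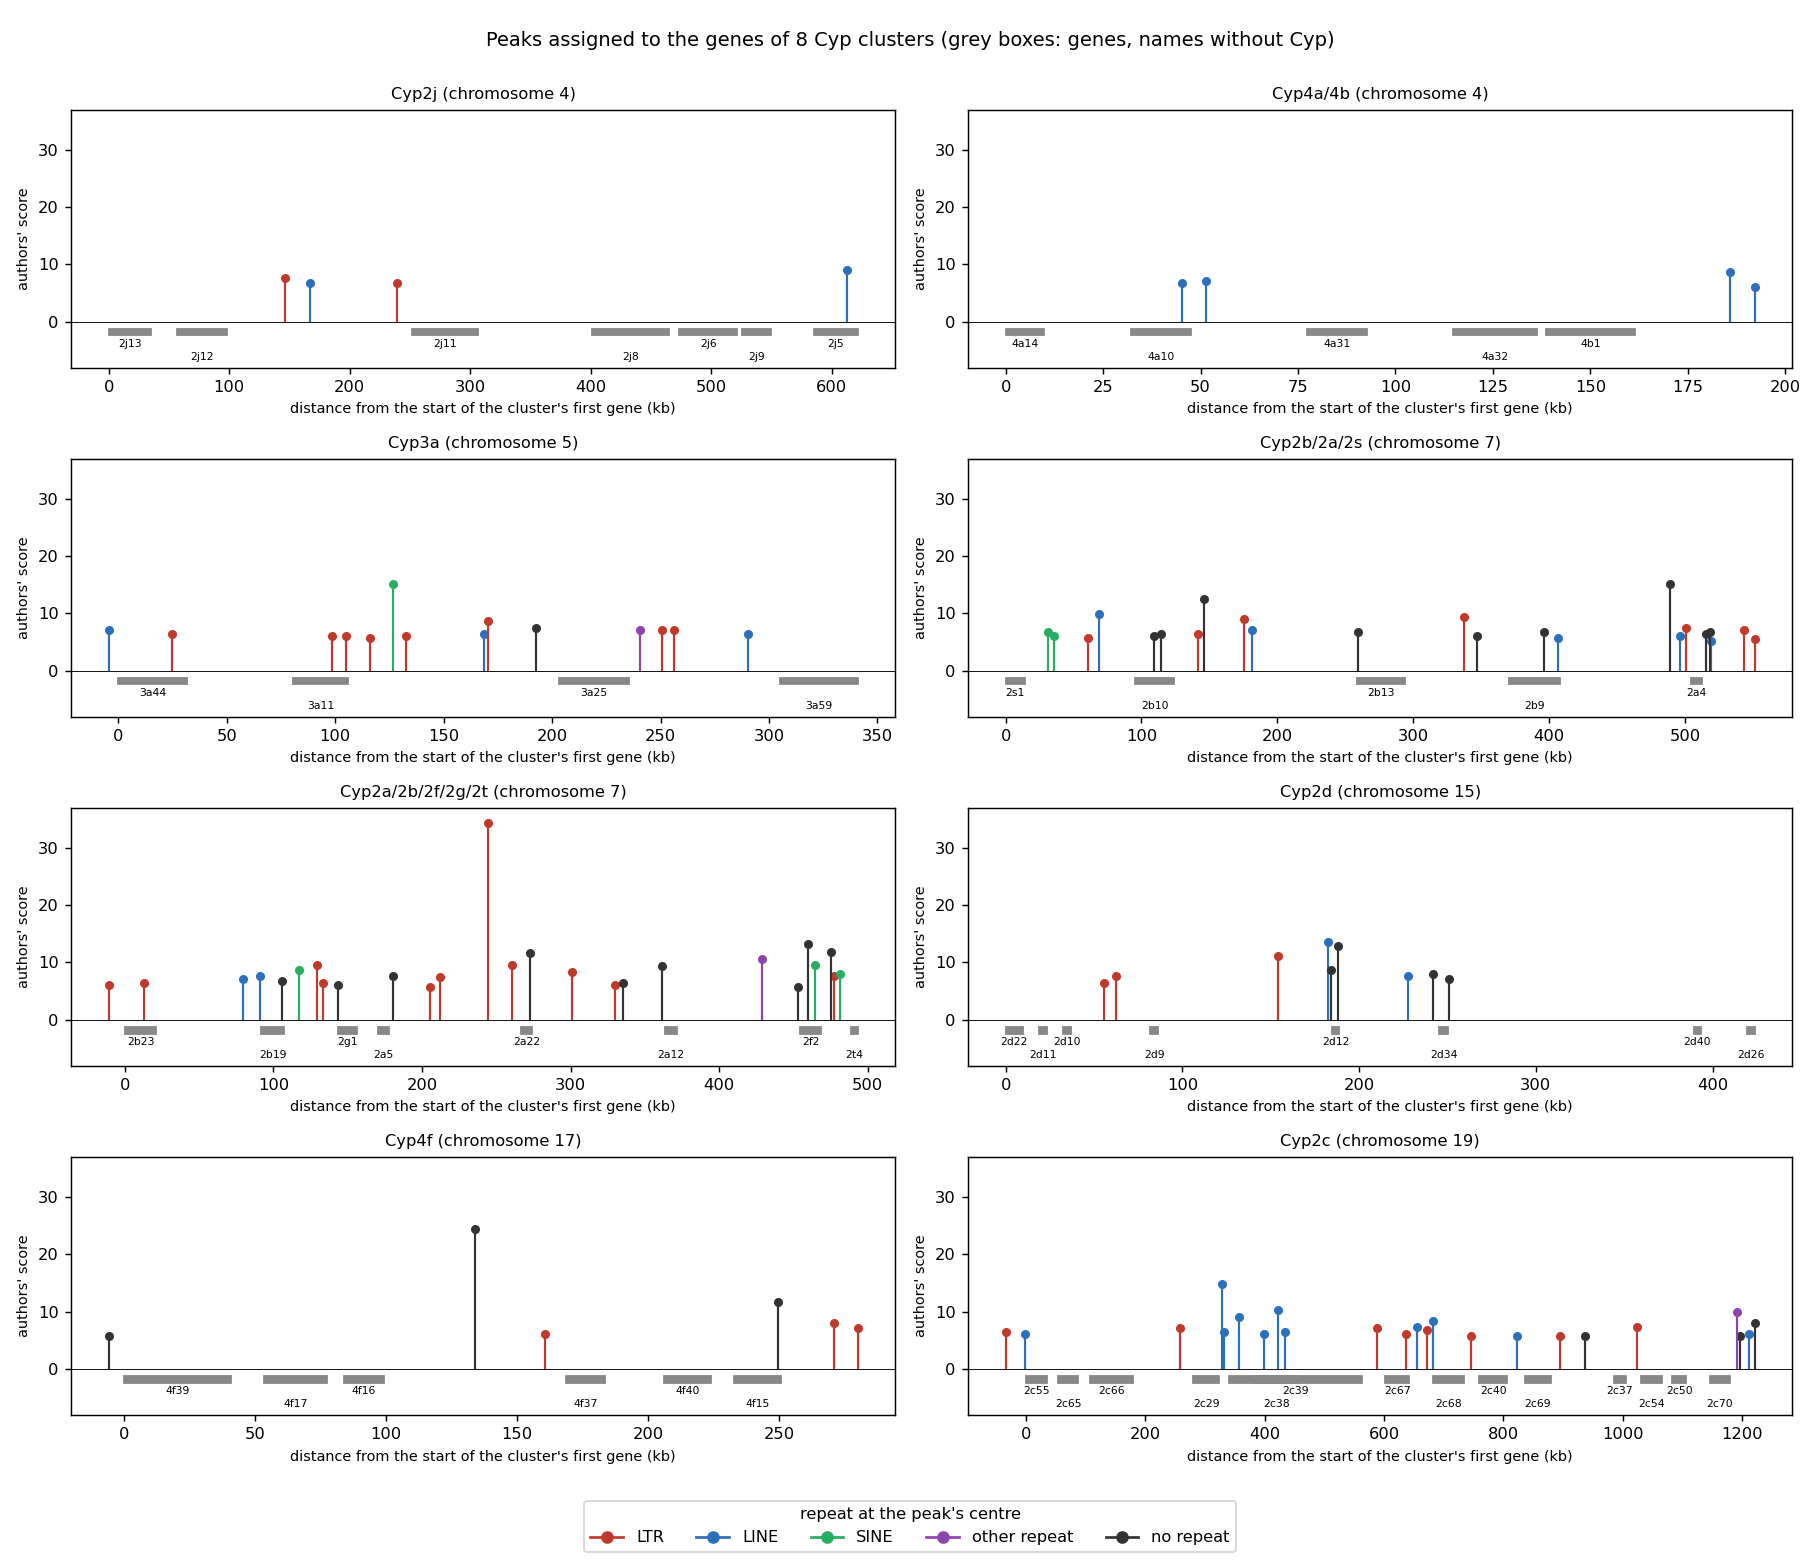
The peaks assigned to the genes of each cluster, as distance from the start of the first gene in kb (x axis) and the authors' score (y axis), with stems coloured by the repeat at the peak's centre and protein-coding genes as grey boxes. Blue (LINE) stems are the most frequent in the Cyp2c panel and red (LTR) stems in the Cyp3a panel, and the tallest stem is the Cyp2a22 peak at 34.3.

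Over all Cyp peaks, 100 of 150 (66.7%, 58.8 to 73.7) had a repeat at their centre, beside 54.0% of all other peaks. LTR elements, the remains of endogenous retroviruses, held 53 (35.3%) beside 26.5%, with 30 on ERVK, the family that includes IAP, 12 on ERVL-MaLR, 6 on ERVL and 5 on ERV1. L1 held 34 (22.7%, 16.7 to 30.0) beside 16.3%, and SINEs held 9 (6.00%) beside 8.06%. These 100 peaks carried 73 repeat names, of which 55 occurred once. L1Md_T was named 5 times, at Cyp26b1, Cyp2c40, Cyp2j12, Cyp4a10 and Cyp4b1, L1Md_F2 4 times and MMERVK10C-int 4 times, at Cyp2a5, Cyp21a1 and Cyp2c67. MMERVK10C-int made up 2.67% of Cyp peaks beside 0.548% of the whole list, but its 4 peaks include 2 neighbours at Cyp2a5. L1Md_T made up 3.33% beside 2.11%, L1Md_F2 2.67% beside 2.28%, and IAPEz-int, at 2 peaks, 1.33% beside 2.01%. MERVL-int and MTA_Mm were named 3 times each, beside shares of 0.709% and 0.482% of the list.

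**Figure D4:**
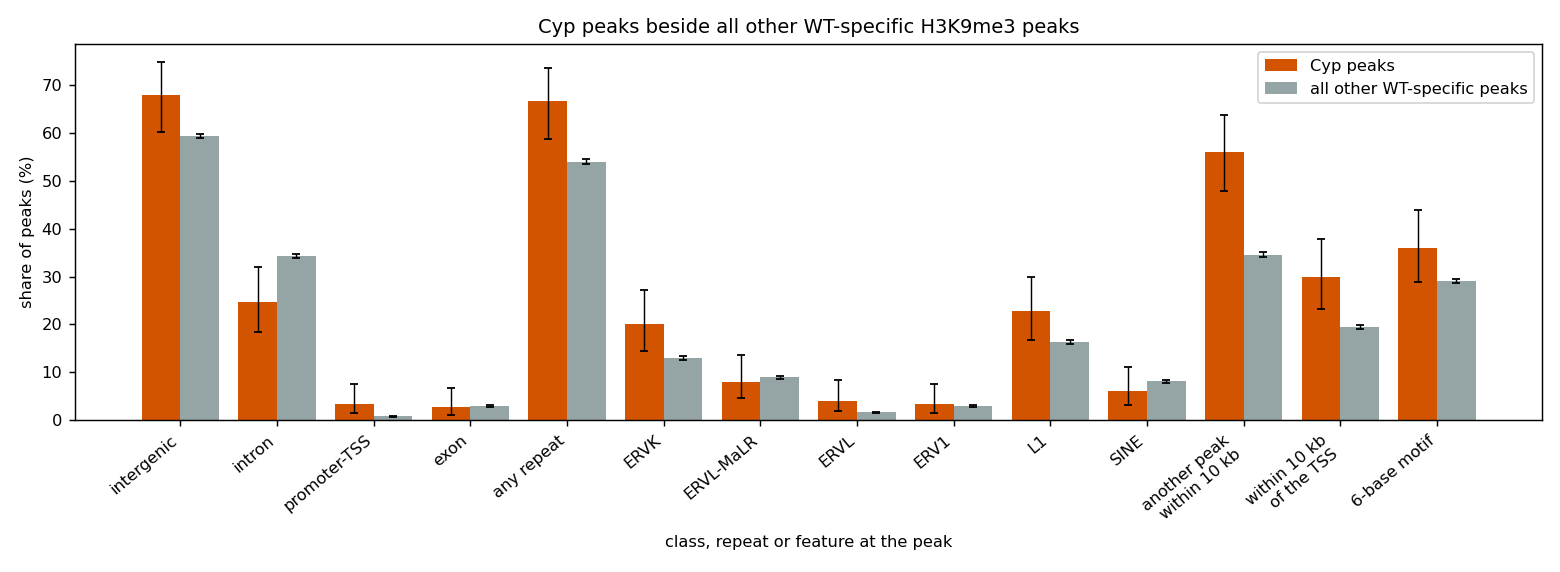
Share of peaks (y axis, percent) by class, repeat or feature, for the 150 Cyp peaks (left bars) and the 34523 other peaks (right bars), with 95% Wilson intervals. Any repeat stands at 66.7% beside 54.0%, promoter-TSS at 3.33% beside 0.794% and another peak within 10 kb at 56.0% beside 34.6%.

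Cyp peaks lay near their genes but mostly outside them. The median distance to the TSS was 17.7 kb (interval 13.7 to 22.8), beside 37.6 kb for all other peaks. Peaks are assigned to the nearest TSS, so this distance is limited by the spacing of genes, whose part in the difference was not tested. Beyond 100 kb lay 4 of 150 peaks, 3 of Cyp26b1 and 1 of Cyp26a1. The class was intergenic for 102 (68.0%) beside 59.4%, intron for 37 (24.7%) beside 34.3%, promoter-TSS for 5, exon for 4 and TTS (transcription end) for 2. By position, 33 peaks lay in the body of their own gene, 2 in another Cyp gene, 6 in a protein-coding gene that is no Cyp gene and 109 in no protein-coding gene. These 109 include 2 peaks of Cyp21a1 that lie in C4a, which the annotation lists as a transcribed pseudogene. Another peak stood within 10 kb of 84 (56.0%, 48.0 to 63.7), beside 34.6% of others. The median was 19.5 kb at cluster genes and 11.6 kb at other Cyp genes.

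The peaks at a TSS are few. Within 2 kb of it lay 11 peaks (7.33%, 4.14 to 12.7), beside 3.36% of others, and 9 of the 11 carried no repeat name. That name is read from 1 label per peak, and no promoter-TSS peak carried one. Whether a repeat lies under the promoter-TSS peaks was not tested. The score was highest at Cyp21a1, 32.4, in a peak of 1355 bp (chr17:34804293-34805648) centred 0.544 kb upstream, and 0.404% of the list scored as high. It covers the TSS. The promoter-TSS peaks of Cyp2b13 (score 6.74, centre 0.0970 kb downstream), Cyp2d34 (7.06, 0.240 kb upstream) and Cyp2g1, an enzyme of the olfactory mucosa (6.10, 0.135 kb upstream), also cover it. That of Cyp2d12 (8.66, 0.555 kb upstream) ends 227 bp short of the TSS. The other 6 belonged to Cyp3a11 (intron 1, on RLTR12H), Cyp2b19, an epoxygenase of skin (1.09 kb upstream, on Lx4B), Cyp2a22 (1.44 kb downstream, intron 3, score 11.6), Cyp2f2 (1.91 kb upstream), Cyp11a1 (1.90 kb downstream) and Cyp2c23 (1.88 kb downstream). Just outside the limit stood Cyp2a12 with a score of 9.31, upstream of its TSS, Cyp4a29, 2.08 kb upstream with 6.10, and a further Cyp2d12 peak on L1Md_A, 2.09 kb upstream with 13.5.

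The 4 exon peaks carried no repeat name, but their label is that of the exon, so a repeat under them was not tested. They lay in exon 6 of 9 of Cyp2b9 (6.74), exon 9 of 9 of Cyp2b19 (6.74), exon 11 of 13 of Cyp4f15 (11.6) and exon 7 of 13 of Cyp4f14 (7.38), a leukotriene hydroxylase. The TTS peaks were at Cyp2u1 (12.5), a fatty acid hydroxylase of brain and thymus, and 4.71 kb upstream of Cyp21a1, where the TTS is that of C4a. Of the 5 Cyp21a1 peaks, a further peak lay in intron 34 of C4a, a complement gene that GRCm38.p6 lists as a transcribed pseudogene.

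The scores of Cyp peaks had a median of 7.06, the same as that of all other peaks, and ran from 5.13 to 34.3. Of 23 peaks at 10 or more, 10 carried no repeat name. The highest, at Cyp2a22, was a peak of 1899 bp on IAPEz-int (chr7:26908559-26910458), 29.9 kb downstream of the TSS, reached by 0.335% of the list. Every 150-base window in it occurs elsewhere in the genome, so a read within it could have come from another copy. Cyp21a1 came next with 32.4 and 3.07% of windows found elsewhere. A peak 34.6 kb upstream of Cyp4f37 with no repeat at its centre (chr17:32586064-32587419) had 24.4 with no window found elsewhere. Cyp1b1 followed with 23.7 on RLTR13D3 (65.2 kb upstream), then Cyp26b1 with 23.1 on RLTR10 (48.1% of windows found elsewhere), Cyp20a1 with 16.4 in intron 1 on L1VL4, and Cyp2a4 and Cyp3a11 with 15.1 each. Over all Cyp peaks 13 (8.67%) had 50% or more of their windows elsewhere, 7 on LTR and 6 on L1 elements, beside 9.98% of other peaks. These 13 were assigned to genes that also had other peaks, since 59 genes remained when the 13 were left out.

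**Figure D5:**
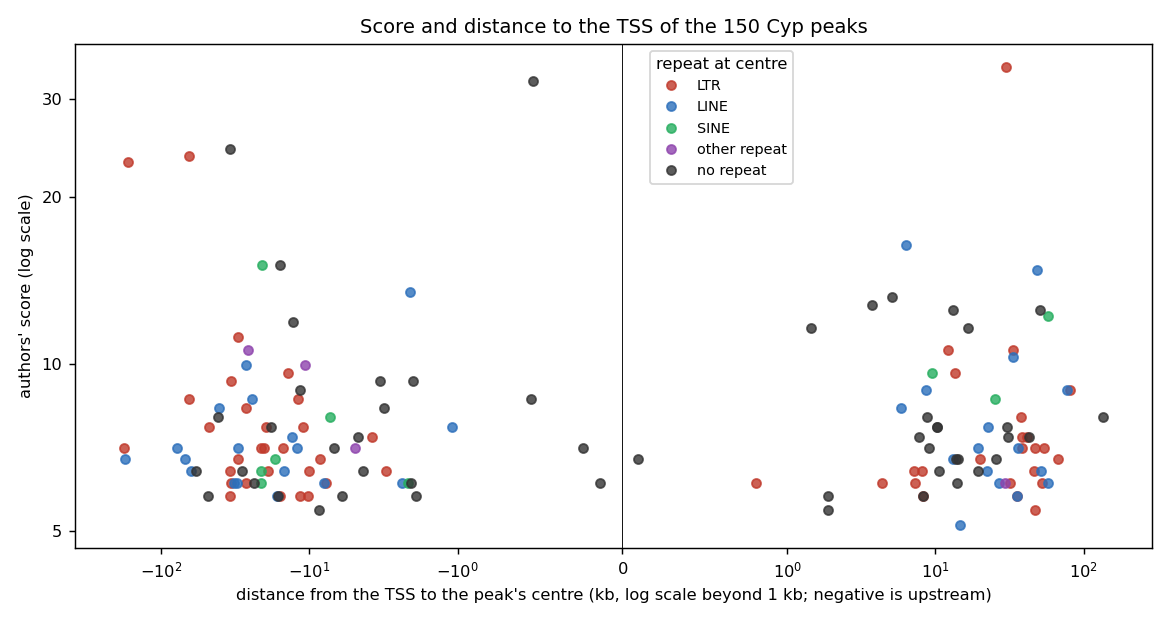
The authors' score (y axis, log scale) against distance from the TSS (x axis, kb, log scale beyond 1 kb, upstream to the left) for the 150 Cyp peaks, coloured by the repeat at the centre. Most points lie between scores of 5 and 10, and the Cyp21a1 promoter peak at 32.4 and the Cyp2a22 peak at 34.3 stand highest.

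Base composition and the NFI site gave smaller differences. The median GC content was 47.3% (46.5 to 48.1), beside 49.1% for all other peaks, and the ratio of observed to expected CpG was 0.166 beside 0.205. TTGGCA on either strand occurred in 54 Cyp peaks (36.0%, 28.8 to 43.9), beside 29.0%. Among peaks of 500 bp it was in 36 of 114 Cyp peaks (31.6%) and 26.4% of others. Peaks of 500 bp made up 76.0% of Cyp peaks and 77.1% of others, and the part of width in these shares was not tested.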

How the data were processed

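H3K9me3 ChIP-seq of BG from postnatal day 10 mice gave 6 libraries. The reads were aligned by the authors to mm10 with Bowtie2 (2.2.8 in the submitters' processing notes), a repetitive read being placed once, at its best-scoring site, and duplicate tags being reduced to 1. The authors then used HOMER (4.10.1) to call peaks, at a false discovery rate of 0.001 and a 4-fold excess over the local 10 kb. The deposited list holds peaks of WT BG absent from mutant BG, with libraries merged. How they were merged, the background of the call and the scale of the deposited score are not given in the sources used here. The depth per library is unknown.

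Members were selected by gene symbol. The nearest TSS, class and repeat are the authors'. The repeat is read from 1 detailed label per peak. Cyp peaks labelled promoter-TSS, exon or TTS carried no repeat name, and their count as non-repeat peaks rests on that label. Genes, sequence and masking came from RefSeq GRCm38.p6, in which all 150 transcripts were found, 139 with the distance within 2 bp and 147 with the same nearest gene. A window of 150 bases was called found elsewhere when its sequence recurs exactly in the genome. Near copies came from blastn 2.17.0 and the rest from Python 3.11.15 with pandas 2.3.3 and scipy 1.17.1. The scripts were tested on simulated data. Shares carry 95% Wilson intervals, medians order-statistic intervals, and no p-value was computed. Genes are named if they are among the 12 with most peaks, hold the 8 highest scores, have a promoter, exon or TTS peak or 1 within 2 kb of the TSS, or belong to the functional lists. The members and the lists were chosen with earlier results of these data known.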

Additional observations from a re-analysis of the deposited data

How the results depend on the processing

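Of 49 alternatives over 11 values, 42 left shares and medians within the interval of the reported value and counts within 1.5 times of it, and 7 moved them further. Restricting the list to scores at or above its median left 82 Cyp peaks, a median GC content of 48.2% and 13.3 peaks per Mb in Cyp clusters (1.64 times the chromosomes). Outside repeats the clusters had 6.78 peaks per Mb, 0.871 times the chromosomes' density, so the excess in the clusters turned round. The bases on which such a peak can lie are fewer there, and per unmasked Mb the ratio was 1.18. Cyp genes with a peak numbered 30 when the peak had to be centred inside the gene, 32 within 10 kb of the TSS, and 31 outside repeats (all genes 32.6%), and 41 with scores at or above the median (all genes 34.3%). Allowing gaps of 500 kb gave 23.9 per Mb, and all symbols that begin with Cyp and a digit gave 160 peaks. Leaving out the 13 peaks with 50% or more of their windows elsewhere, an alternative chosen after seeing the data, gave 63.5% of Cyp peaks on a repeat. No paired analysis was possible because the list merges the libraries and holds no value for any of them, and for the same reason no library could be left out. The missing depth leaves the presence of weaker H3K9me3 at these peaks in mutant BG unknown.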
